A study of Mus musculus with 10 samples.

Results

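The mesenchymal-to-epithelial switch of reprogramming was followed through 10 genes that were chosen by name, with earlier results of these data known. They are the transcription factor genes *Snai1*, *Snai2*, *Twist1*, *Twist2*, *Zeb1* and *Zeb2*, the cadherin genes *Cdh1* and *Cdh2*, the epithelial surface gene *Epcam* and the intermediate filament gene *Vim*. All 10 were among the 18901 genes of the deposited table, and all 10 were among the 17075 genes tested, which reached a value of 10 in 2 libraries or more.

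The RNA came from 5 mouse lines with 2 libraries each. Oct4/GFP MEF, mouse embryonic fibroblasts with a green fluorescent reporter at *Oct4*, were taken at passages 2 and 4 and grown in DMEM with FCS. The other lines, taken at passages 5 and 25, were pre-iPS cells, 'rNetrin-1-derived' iPS clones 1 and 2, and a 'control' iPS line, and iPS cells were grown in KSR medium with LIF. All lines come from a cross of mf1 and 129 mice, and the iPS lines were obtained from such MEF with retroviruses for Oct4, Sox2, Klf4 and c-Myc. The 'rNetrin-1-derived' clones were reprogrammed with the labelled agent, Netrin-1, and the 'control' line without it. Pre-iPS cells are held part of the way through reprogramming and do not silence the retroviral transgenes. The 2 libraries of each reprogrammed line are passages of that line, and the labels do not say whether the pre-iPS cells are 1 clone. P-values between lines thus measure the spread between the passages of a line, and not that between independent lines. Pre-iPS and iPS cells of this study were kept on gelatin or on irradiated MEF, and the study's methods also name KSR medium with the inhibitors 2i beside LIF. Which of these applied to each library is not given in the sources used here. The libraries held 38110410 to 52946856 reads on genes. The level of a gene is given as the deposited value, a read count brought by the authors to a library size common to all libraries.

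Fibroblasts are mesenchymal cells, held apart from each other and rich in vimentin and N-cadherin, whereas pluripotent stem cells of the mouse grow as tight colonies joined by E-cadherin. The Snail, Twist and Zeb factors bind E-box motifs and are known as repressors of E-cadherin and of other epithelial genes, and the passage from fibroblast to epithelial colony is an early step of reprogramming. TGF-beta signals are known to sustain the mesenchymal state and BMP signals to favour the epithelial one.

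The switch genes separated MEF from every other library. *Cdh1* and *Epcam* were near the bottom of their range in MEF and high in all pre-iPS and iPS libraries, and the other 8 genes lay the opposite way. A gene is called here at an adjusted p under 0.05 (limma, Benjamini-Hochberg over the 17075 genes) with a log2 fold change of at least 1 in size. All 10 were called between MEF and the 3 iPS lines, 8 higher in MEF and 2 lower, where 21.6% of all tested genes were called higher and 26.6% lower. The median log2 fold change of the 8 and 2 together was 2.69, against -0.09 over all genes.

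**Figure D1:**
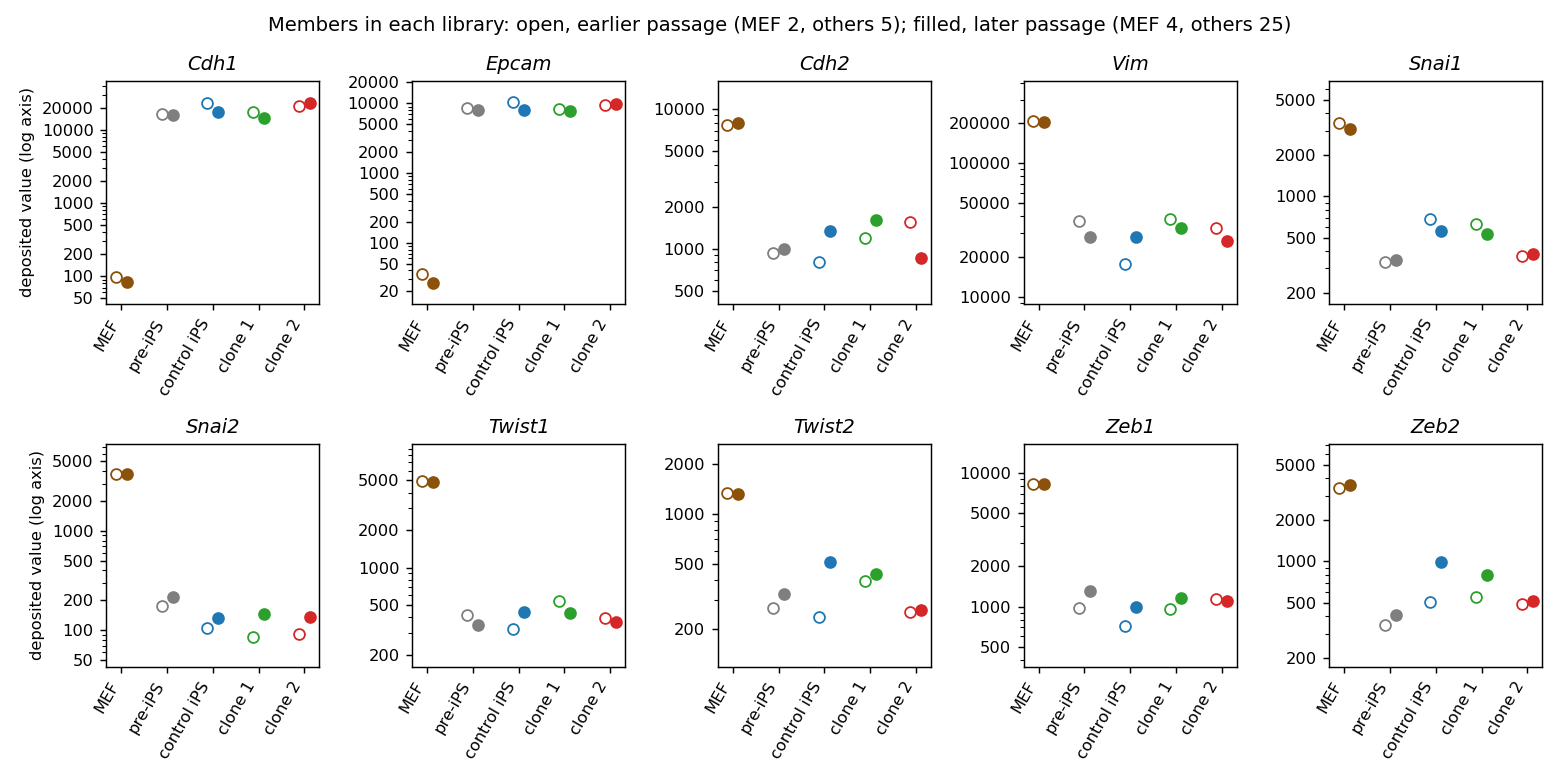
Deposited value of each of the 10 genes (y axis, log scale, its own range in each panel) in the 10 libraries, grouped by line (x axis). Open circles are the earlier and filled circles the later passage of a line. The MEF libraries lie apart from the other 8 in every panel, below them for *Cdh1* and *Epcam* and above them for the other genes.

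*Cdh1* encodes E-cadherin, the adhesion protein that joins epithelial and embryonic stem cells. It lies at chr8:106603351-106670246 on the plus strand of GRCm38. Its value was 98.8 and 83.6 in MEF at passages 2 and 4. At passages 5 and 25 it was 16538 and 15883 for pre-iPS, 23289.8 and 17352 for the 'control' line, 17853 and 14659 for clone 1, and 21080.4 and 23240.5 for clone 2. The lowest of these 8 libraries was clone 1 at passage 25, and no library came near MEF. MEF lay 210.2-fold below iPS, a log2 fold change of -7.72 ± 0.13 (SE) with a limma adjusted p of 2.23e-09.

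*Epcam* encodes an epithelial cell adhesion molecule that is also a surface protein of pluripotent cells. It lies at chr17:87635979-87651129 on the plus strand of GRCm38. *Epcam* had values of 35.1 and 26.5 for MEF, 8505 and 8052 for pre-iPS, 10463 and 8133 for the 'control' line, 8218 and 7848 for clone 1, and 9533 and 9893 for clone 2. The 8 pre-iPS and iPS libraries spanned a narrow range and none overlapped with MEF. MEF lay 284-fold below iPS, a log2 fold change of -8.15 ± 0.12 (SE) with a limma adjusted p of 2.23e-09.

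*Cdh2* encodes N-cadherin, the cadherin of mesenchymal and neural cells. It lies at chr18:16588877-16809246 on the minus strand of GRCm38. *Cdh2* had values of 7727 and 7940.1 for MEF and of 929 and 1002 for pre-iPS. The 'control' line had 804 and 1347, clone 1 had 1202 and 1597, and clone 2 had 1562 and 860.3. Both passages of MEF were above all other libraries, and the iPS lines overlapped each other. *Cdh2* was 6.6-fold higher in MEF than in iPS, a log2 fold change of 2.72 ± 0.25 (SE) with a limma adjusted p of 9.99e-06. The ratio of the *Cdh1* value to the *Cdh2* value was 0.0128 and 0.0105 in MEF and from 9.18 to 29 in the other 8 libraries, so the cadherin with the higher value was *Cdh2* in each MEF library and *Cdh1* in each of the others. The lowest ratio outside MEF was that of clone 1 at passage 25.

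*Vim* encodes vimentin, the intermediate filament of mesenchymal cells. It lies at chr2:13573927-13582826 on the plus strand of GRCm38. *Vim* had values of 206328 and 204532 for MEF, 36819.8 and 28180.1 for pre-iPS, 17710.3 and 27881 for the 'control' line, 38476 and 33054 for clone 1, and 32648 and 26088 for clone 2. *Vim* was thus still abundant outside MEF, and its lowest library was the 'control' line at passage 5. *Vim* was 7.21-fold higher in MEF than in iPS (log2 fold change 2.85 ± 0.18 SE, limma adjusted p 9.46e-07). Under quantile normalization the log2 fold change was 2.05 and still called.

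Of the 6 transcription factors, *Snai2* differed most between MEF and iPS and *Twist2* least. *Snai2*, also known as Slug, is at chr16:14705852-14709385 on the plus strand. *Snai2* had values of 3771 and 3724 for MEF, 175 and 216 for pre-iPS, and 86.1, 119 and 146 as the lowest, median and highest of the 6 iPS libraries. The groups of MEF, pre-iPS and iPS did not overlap. *Snai2* was 32.6-fold higher in MEF than in iPS (log2 fold change 5.03 ± 0.23 SE, limma adjusted p 1.85e-07).

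*Snai1*, also known as Snail, is at chr2:167538195-167542814 on the plus strand. *Snai1* had values of 3425 and 3071 for MEF, 332 and 347 for pre-iPS, 681 and 561 for the 'control' line, 632 and 529 for clone 1, and 371 and 379 for clone 2. Clone 2 was the lowest of the iPS lines and closest to pre-iPS. *Snai1* was 6.33-fold higher in MEF than in iPS (log2 fold change 2.66 ± 0.11 SE, limma adjusted p 1.2e-07).

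*Twist1*, a basic helix-loop-helix factor of mesoderm and neural crest, is at chr12:33957671-33959829 on the plus strand. *Twist1* had values of 4915 and 4826 for MEF, 421 and 351 for pre-iPS, and 323, 411 and 543 as the lowest, median and highest of the iPS libraries. Pre-iPS lay within the iPS range. *Twist1* was 11.8-fold higher in MEF than in iPS (log2 fold change 3.57 ± 0.15 SE, limma adjusted p 9.77e-08).

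*Twist2*, its paralog, is at chr1:91801461-91848028 on the plus strand. *Twist2* had values of 1328 and 1311 for MEF, 269 and 326 for pre-iPS, and 238, 329 and 509 as the lowest, median and highest of the iPS libraries. Both the lowest and the highest of these were the 'control' line, at passages 5 and 25. *Twist2* was 3.94-fold higher in MEF than in iPS (log2 fold change 1.98 ± 0.24 SE, limma adjusted p 7.09e-05).

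*Zeb1*, a zinc finger and homeobox factor that represses *Cdh1*, is at chr18:5591860-5775467 on the plus strand. *Zeb1* had values of 8264 and 8241 for MEF, 981 and 1304 for pre-iPS, and 714, 1049 and 1165 as the lowest, median and highest of the iPS libraries. *Zeb1* was 8.24-fold higher in MEF than in iPS (log2 fold change 3.04 ± 0.15 SE, limma adjusted p 2.49e-07). It shares exon bases with *Gm10125* on the opposite strand, a transcript at 22.3 and 17 in MEF and at most 5.22 elsewhere.

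*Zeb2*, its paralog, is at chr2:44983632-45117395 on the minus strand. *Zeb2* had values of 3409 and 3557 for MEF, 346 and 407 for pre-iPS, and 491, 534 and 989.7 as the lowest, median and highest of the iPS libraries. The highest was the 'control' line at passage 25. *Zeb2* was 5.62-fold higher in MEF than in iPS (log2 fold change 2.49 ± 0.24 SE, limma adjusted p 1.23e-05). It shares exon bases with the antisense gene *Zeb2os*, and *Twist2* with the antisense gene *Gm29100*. The library kit does not mark strand, so reads from the shared bases cannot be told apart.

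Levels of different genes were compared per kb of exon, the union of all exons of a gene in GENCODE M21. In MEF, *Vim* was highest with 43312 per kb, followed by *Twist1* with 2992, *Snai1* with 2004 and *Snai2* with 1855. The order went on with *Cdh2* at 971 per kb, *Zeb1* at 804, *Twist2* at 416, *Zeb2* at 175, *Cdh1* at 19.9 and *Epcam* at 14. *Snai1* and *Snai2* were neighbours whose difference was within the SD of *Snai1* between passages, 155 per kb. In iPS, *Vim* was still highest with 6179 ± 1509 per kb (SD, n = 6), followed by *Cdh1* with 4280.5 ± 767 and *Epcam* with 4107 ± 495, and *Cdh1* and *Epcam* did not differ beyond that spread. The 6 factors and *Cdh2* followed at 32.2 to 324 per kb, with *Snai1* highest and *Zeb2* lowest. *Zeb1* and *Zeb2* have unions of 10266 and 19942 bases and longest transcripts of 5801 and 9124 bases, so their values per kb depend on the length used.

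The 8 genes that were higher in MEF kept a measurable level in iPS. The mean of the 6 iPS libraries was 3.11% of the MEF mean for *Snai2*, 8.53% for *Twist1*, 12.3% for *Zeb1*, 14.3% for *Vim*, 15.7% for *Cdh2*, 16.2% for *Snai1*, 18.4% for *Zeb2* and 26.4% for *Twist2*. Markers of fibroblasts were set beside them. In MEF the 9 fibroblast markers summed to 2965772 and 3109734. Together they came to 0.719 to 1.25% of the MEF mean in the iPS libraries and to 0.747 to 0.781% in pre-iPS cells. Singly they ranged in iPS from 0.12% (*Lum*) to 19.1% (*Dcn*) of MEF, with a median of 0.996%. None of the 9 was at 0 in any library. In iPS, *Pdgfra* at 16.2% and *Thy1* at 9.38% of MEF lay within the range of the switch genes, and *Col1a1* at 0.67%, *Col3a1* at 0.567% and *Postn* at 0.328% lay below it. The part of fibroblasts or feeder cells in the remaining levels was not tested, and in bulk RNA fewer cells of a type and less RNA per cell cannot be told apart. In MEF, 6 macrophage markers summed to 12026 and 12098 against 567 to 1456 in iPS and to 1107 and 1896 in pre-iPS cells, and the part of other cells in the MEF levels was not tested either.

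**Figure D2:**
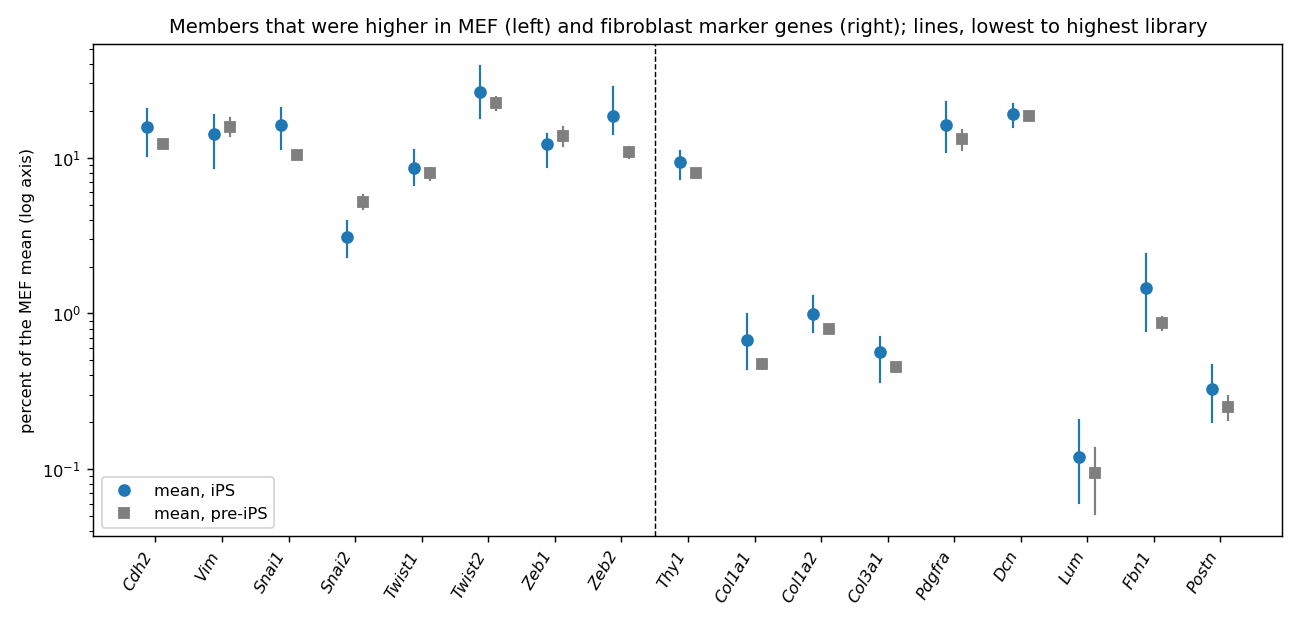
Level as a percent of the MEF mean (y axis, log scale) for the 8 genes that were higher in MEF and for the 9 fibroblast markers (x axis). Circles are the mean of the 6 iPS libraries, squares that of the 2 pre-iPS libraries, and lines run from the lowest to the highest library. The 8 genes lie between 3.11 and 26.4% in iPS, and the markers between 0.12 and 19.1%.

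Pre-iPS cells were then placed between MEF and iPS. Against MEF, all 10 genes were called again, 8 lower in pre-iPS cells and *Cdh1* and *Epcam* higher. Over all tested genes, 20.9% were called higher in MEF than in pre-iPS and 22.4% lower. MEF were 176-fold lower for *Cdh1* and 263-fold lower for *Epcam*, and from 4.44-fold (*Twist2*) to 19.2-fold (*Snai2*) higher for the other 8. This comparison and that of MEF against iPS share the MEF libraries.

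No switch gene was called between pre-iPS cells and iPS, where 16.3% of all tested genes were called in one or the other direction. In edgeR's quasi-likelihood test on whole reads none was called either, and 8353 genes had an unadjusted p under 0.05 in limma. An adjusted p under 0.05 with a log2 fold change smaller than 1 was found for 3 genes, *Snai1*, *Snai2* and *Zeb2*, where 39.6% of all tested genes had such an adjusted p at any size of change. The 2 pre-iPS libraries did not overlap with the 6 iPS libraries for these 3 genes. The share of all tested genes without such overlap was not counted, so the lack of overlap is not read as a result about these genes.

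*Snai1* had a log2 difference of pre-iPS less iPS of -0.59 (95% interval -0.85 to -0.33) with a limma adjusted p of 0.00403. *Zeb2* had one of -0.72 (-1.26 to -0.18) with an adjusted p of 0.0394. *Snai2* went the other way, with 0.77 (0.23 to 1.30) and an adjusted p of 0.0302. The adjusted p of *Snai1* was at most 0.038 in all 20 alternatives. That of *Snai2* was under 0.05 in 14 of 20 and ranged from 0.00461 to 0.184. Without pre-iPS at passage 5 or 25 it was 0.0744 and 0.184, without 'control' iPS at passage 5 it was 0.0564, and without MEF at passage 2 or 4 it was 0.059 and 0.0589. That of *Zeb2* was under 0.05 in 11 of 20 and ranged from 0.00409 to 0.22. It was 0.22 and 0.093 without pre-iPS at passage 5 or 25, 0.0669 without clone 1 at passage 25, 0.0595 and 0.0713 without clone 2 at passage 5 or 25, and 0.0673 without either MEF library. Under quantile normalization *Snai2* was called, with a log2 fold change of 1.04 and a limma adjusted p of 0.0138, while that of *Zeb2* was 0.0617. Fitted over the lines compared alone, without MEF, the limma adjusted p was 0.0673 for *Snai2* and 0.0711 for *Zeb2*.

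The other 7 genes had 95% intervals that held 0. They ran from -0.54 to 0.04 for *Cdh1*, from -0.39 to 0.16 for *Epcam*, from -0.87 to 0.27 for *Cdh2* and from -0.23 to 0.58 for *Vim*. For the factors they ran from -0.43 to 0.24 for *Twist1*, from -0.73 to 0.39 for *Twist2* and from -0.16 to 0.52 for *Zeb1*. A difference of 2-fold in either direction lay outside all 7 intervals. On the log2 path from MEF to iPS, pre-iPS cells stood at 84.8% (*Snai2*), 93.8% (*Vim*), 94.2% (*Zeb1*), 96.7% (*Cdh1*) and 98.6% (*Epcam*). *Twist1* stood at 103%, *Twist2* at 109%, *Cdh2* at 111%, *Snai1* at 122% and *Zeb2* at 129%, beyond the iPS mean. Over the 8237 genes called between MEF and iPS, the median position was 92.1% and 52.6% of genes stood at 90% or more.

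The pre-iPS line still went against iPS in the markers of naive pluripotency, genes that mark the ground state of mouse stem cells. Of 6 such markers, 5 were called lower in pre-iPS than in iPS. The log2 fold changes of the 6 ran from -7.11 to 0.02 with a median of -3.17, so a sum does not describe each marker. The sum of the 6 was 14913 to 16137 in pre-iPS cells, 29187 to 71658 in iPS and 168 to 185 in MEF. The pre-iPS libraries thus had *Cdh1* and *Epcam* within the range of the iPS libraries and the summed pluripotency markers below it.

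**Figure D3:**
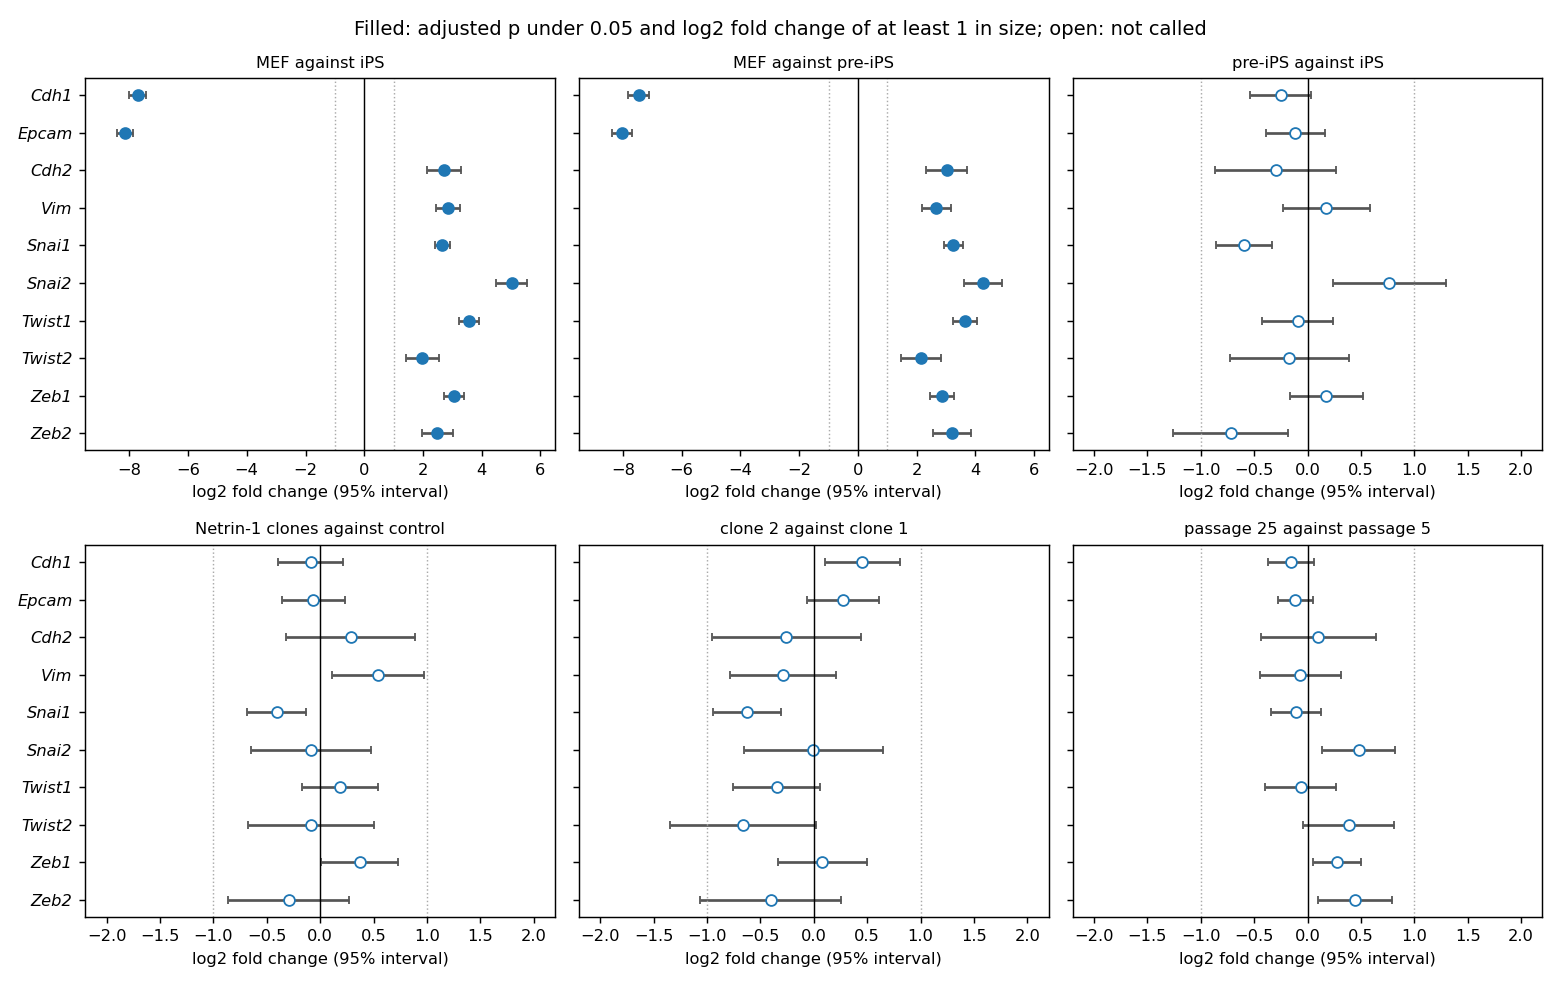
Log2 fold change of each of the 10 genes (x axis, with 95% interval) in the 6 comparisons, in separate panels. Filled circles are called and open circles are not, and dotted lines mark a change of 1 on the log2 scale. All 10 genes are called in both comparisons with MEF and none in the other 4, whose x axis covers a narrower range.

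Treatment with rNetrin-1 during reprogramming was compared over the iPS lines. None of the 10 genes was called between the 2 'rNetrin-1-derived' clones and the 'control' line, where 2.11% of all tested genes were called. The 360 calls behind this share fell to 120 and 146 without the 'control' line at passage 25 or 5, to 199 without clone 2 at passage 5 and to 237 and 236 without MEF at passage 2 or 4. With passage as a replicate block they came to 564. In each of these fits none of the 10 was called. In edgeR none was called either, and 3066 genes had an unadjusted p under 0.05 in limma. *Snai1* had 371 to 632 in the 4 libraries of the clones and 561 and 681 in the 'control' line, which overlapped. Its log2 difference of clones less control was -0.41 (95% interval -0.68 to -0.13), with a limma adjusted p of 0.115. Over the alternatives this difference ran from -0.55 to -0.27, with adjusted p on both sides of 0.05. *Vim* had the widest difference upward, 0.54 (0.11 to 0.97), with an adjusted p of 0.178. For *Cdh1* the difference was -0.09 (-0.39 to 0.22) and for *Epcam* -0.06 (-0.36 to 0.23). The intervals of the other 6 genes lay between -0.86 and 0.89. With 1 'control' line, treatment and line cannot be told apart.

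Between clone 2 and clone 1 none of the 10 was called, and 0.966% of all tested genes were. Those 165 calls fell to 34 and 14 without clone 1 at passage 5 or 25, to 20 without clone 2 at passage 25 and to 40 without either MEF library. They rose to 260 without clone 2 at passage 5 and to 327 with passage as a replicate block. None of the 10 was among them in any of these fits. In edgeR none was called, and 2831 genes had an unadjusted p under 0.05 in limma. *Snai1* was 371 and 379 in clone 2 against 632 and 529 in clone 1, without overlap. Its log2 difference was -0.62 (95% interval -0.94 to -0.31), with a limma adjusted p of 0.075. Over the alternatives this difference ran from -0.75 to -0.49, with adjusted p on both sides of 0.05. *Cdh1* was without overlap in the other direction, with a log2 difference of 0.45 (0.10 to 0.80) and an adjusted p of 0.2. *Twist1*, *Twist2*, *Zeb2* and *Vim*, lower in clone 2, and *Epcam*, higher, did not overlap either. Their limma adjusted p ran from 0.313 (*Twist2*) to 0.552 (*Vim*). The share of all tested genes without overlap was not counted, so the lack of overlap is not read as a result about these genes. *Cdh1* is on chromosome 8, whose 865 tested genes had a median log2 difference of 0.17 between these clones, against -0.01 over all genes. Against the mean of the iPS libraries, the chromosome 8 median was 0.075 and 0.158 in clone 2 at passages 5 and 25 and from -0.07 to -0.04 in the other 6 pre-iPS and iPS libraries. The part of that shift in the *Cdh1* difference was not tested. *Epcam*, on chromosome 17, had a log2 difference of 0.27 (-0.06 to 0.61) while the median of its chromosome was -0.02.

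The passages of the 4 reprogrammed lines were compared next, with the line as a block. None of the 10 genes was called between passage 25 and passage 5, where 1.69% of all tested genes were called. The 289 calls fell to 94 and 99 without clone 1 at passage 5 or 25 and to 170 and 171 without pre-iPS at passage 5 or 25, in each case with none of the 10 among them. In edgeR none was called, and 4971 genes had an unadjusted p under 0.05 in limma. *Snai2* and *Zeb2* had higher values at passage 25 in 4 of 4 lines. *Snai2* went from 175 to 216 in pre-iPS cells, from 106 to 132 in the 'control' line, from 86.1 to 146 in clone 1 and from 92.2 to 135 in clone 2. The mean log2 difference was 0.48 (95% interval 0.13 to 0.82), with a limma adjusted p of 0.0806. *Zeb2* went from 509 to 989.7 in the 'control' line and from 491 to 513 in clone 2, its widest and narrowest differences. The mean was 0.45 (0.10 to 0.79), with an adjusted p of 0.0963. *Twist2* was also higher at passage 25 in 4 of 4 lines, with a mean of 0.39 (-0.04 to 0.81) and an adjusted p of 0.208. The share of all tested genes that moved the same way in 4 of 4 lines was not counted. Over all of them, deviations of same-numbered libraries correlated at 0.235 to 0.504 between lines.

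*Cdh1* and *Epcam* were lower at passage 25 in 3 of 4 lines, with log2 differences of -0.16 (-0.37 to 0.06) and -0.11 (-0.28 to 0.05). The lines differed in *Cdh2*, which had a log2 difference of 0.75 in the 'control' line and -0.86 in clone 2. The 'control' line had the widest upward differences in *Twist2* (1.09), *Zeb2* (0.96), *Cdh2* (0.75) and *Vim* (0.66). Each of these rests on 1 library per passage, so no test within a line was possible.

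**Figure D4:**
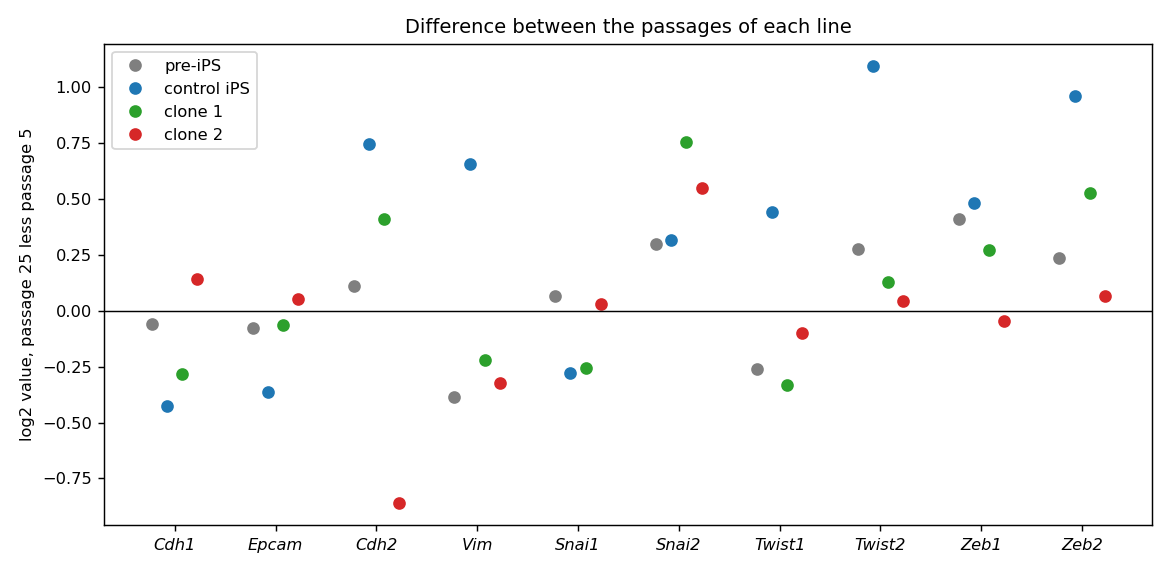
Log2 difference between passage 25 and passage 5 (y axis) of each of the 10 genes (x axis) in the pre-iPS line, the 'control' iPS line and clones 1 and 2, 1 point a line. *Snai2*, *Twist2* and *Zeb2* lie above 0 in all 4 lines, and *Cdh2* runs from -0.86 to 0.75.

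The other genes of the pathway were taken from 6 lists, also chosen with earlier results of these data known. Between MEF and iPS, 21.6% of all tested genes were called higher in MEF and 26.6% lower. Of 10 epithelial transcription and splicing regulators, 9 were called lower in MEF than in iPS and 0 higher. *Grhl2*, a grainyhead factor that activates *Cdh1*, was 3.51 and 2.13 in MEF and 1366 to 2555 in the iPS libraries, a log2 fold change of -8.89 ± 0.17 (SE). *Elf3*, an epithelial Ets factor, had a log2 fold change of -8.11 ± 0.46, and *Esrp1*, a splicing regulator of epithelial isoforms, one of -7.61 ± 0.11. *Ovol2*, which represses *Zeb1*, had 0 reads in both MEF libraries and a mean of 228 ± 29.8 (SD, n = 6) in iPS, at least 68-fold higher when MEF is set to the 3 reads per library that a count of 0 allows. The median of the list was a log2 fold change of -6.02, or -5.94 with *Ovol2* at that bound. *Klf5* was not called.

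Of 29 epithelial junction, keratin and surface genes, 25 were called lower in MEF and 1 higher, with a median log2 fold change of -6.08. The claudins *Cldn6*, *Cldn4* and *Cldn3*, which form tight junctions, had log2 fold changes of -8.45, -8.25 and -8.18. The 1 gene higher in MEF was *Cdh3*, which encodes P-cadherin and is named because it stands alone. *Cdh3* was 6595 and 6529 in MEF against 629 to 1742 in iPS, so of the classical cadherins set out here *Cdh1* was lower in MEF and *Cdh2* and *Cdh3* were higher.

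Of 23 mesenchymal matrix, surface and cytoskeleton genes, 22 were called higher in MEF and 0 lower, with a median log2 fold change of 4.58. *Postn*, *Col5a2*, *Col3a1* and *Col1a1*, which encode periostin and fibrillar collagens, had log2 fold changes of 8.30, 7.68, 7.50 and 7.27. *Cd44*, the hyaluronan receptor, was the 1 gene not called, with 8490.4 and 8579 in MEF and 6108 to 11957 in iPS.

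Of 19 tested genes on a list of further switch factors and co-repressors, 8 were called higher in MEF and 3 lower, with a median log2 fold change of 0.83. Over all tested genes 21.6% were called higher and 26.6% lower. The homeobox genes *Prrx2* and *Prrx1* had log2 fold changes of 5.28 and 4.50, and *Id3*, an inhibitor of helix-loop-helix factors, one of 4.29. *Snai3*, the third Snail gene, went against its relatives, with 6 and 7.37 in MEF and 163 to 395 in iPS, a log2 fold change of -4.95 ± 0.29 (SE). Of 17 TGF-beta and BMP signal genes, 9 were called higher in MEF and 2 lower. The ligand genes *Tgfb3* and *Bmp4* and the receptor gene *Tgfbr2* had log2 fold changes of 5.64, 4.47 and 4.31, and the ligand gene *Bmp7* one of -3.86. Of 5 catenins, which tie cadherins to actin, 2 were called higher in MEF, *Ctnna2* by 4.34 and *Ctnnd1* by 1.13 on the log2 scale, and the other 3 were not called.

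**Figure D5:**
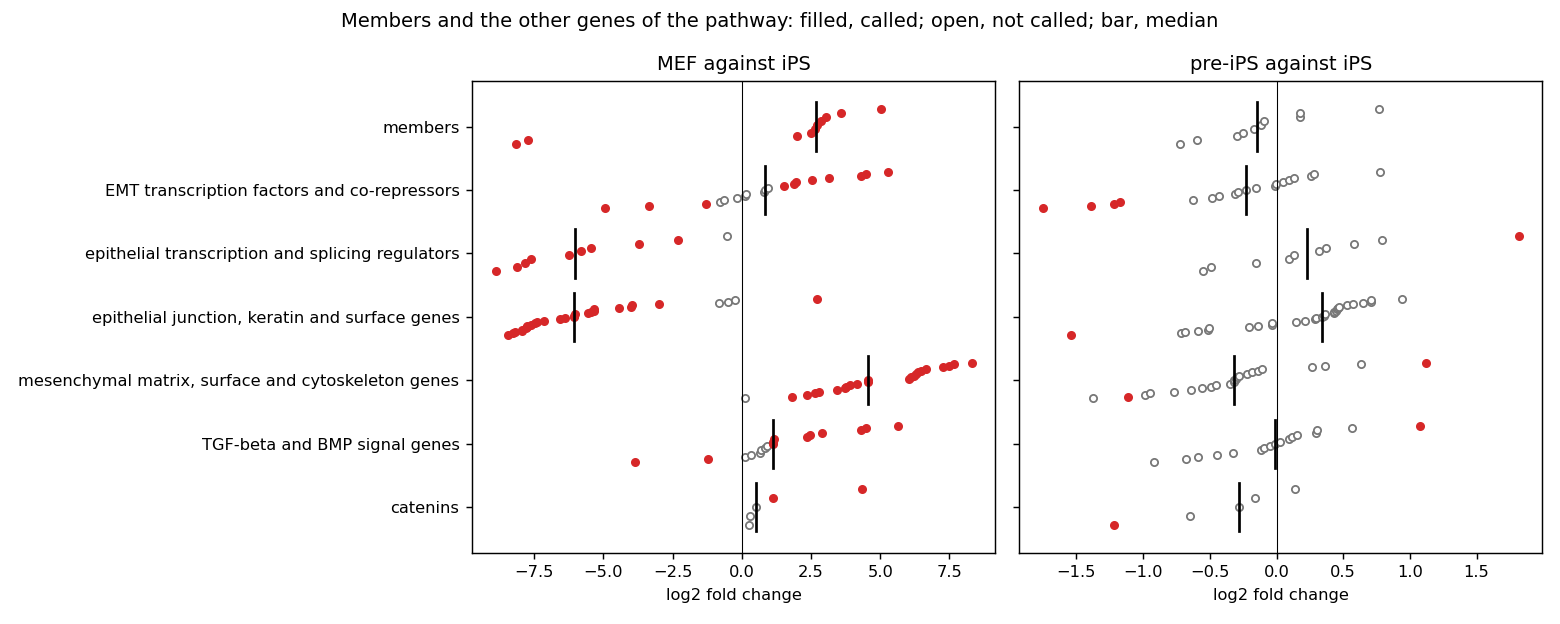
Log2 fold changes (x axis) of the 10 switch genes and of the 6 lists of further pathway genes (y axis, 1 row a list), for MEF against iPS on the left and pre-iPS against iPS on the right, each panel with its own scale. Filled circles are called genes, open circles are not, and the bar is the median of the row. On the left the epithelial lists have medians of -6.02 and -6.08 and the mesenchymal list one of 4.58, and on the right the medians lie between -0.32 and 0.34.

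Between MEF and pre-iPS cells, 20.9% of all tested genes were called higher in MEF and 22.4% lower. Lower in MEF were 9 of 10 epithelial regulators and 26 of 29 junction genes, with *Grhl2* at -8.73 and *Cldn3* at -8.64 on the log2 scale. Of 23 mesenchymal genes 22 were higher in MEF, with *Postn* at 8.65, and *Cd44* was lower. Among the 19 factors and co-repressors 8 were higher and 2 lower, with *Prrx2* at 6.68 and *Id3* at 6.05. Of 17 TGF-beta and BMP signal genes 10 were higher and 2 lower, and of 5 catenins *Ctnna2* was higher with 5.56.

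Between pre-iPS and iPS, 4.71% of all tested genes were called higher in pre-iPS cells and 11.6% lower. On the list of factors and co-repressors 4 of 19 were lower in pre-iPS cells, *Id3* with a log2 fold change of -1.75, *Prrx2* with -1.39, *Snai3* with -1.22 and *Id2* with -1.17. *Ehf*, an epithelial Ets factor, was higher with 1.82, the 1 called among 10 epithelial regulators. Among 29 junction genes *Cdh3* was lower with -1.54. Of 23 mesenchymal genes *Cd44* was higher with 1.12 and *Lox*, a collagen crosslinking enzyme, lower with -1.12. *Tgfb2* was higher with 1.08, and *Ctnna2* lower with -1.22.

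Within the reprogrammed lines, 0.99% of all tested genes were called higher and 1.12% lower in the clones than in the 'control' line, and 0.714% higher and 0.252% lower in clone 2 than in clone 1. On the lists *Lox*, *Tgfb2*, *Ehf* and *Ap1m2* were called in the first of these comparisons and *Lox* and *Tgfb2* in the second. *Lox* was 10189 and 8228 in clone 1 and at most 1347 in the other 6 pre-iPS and iPS libraries. Its log2 fold change was 2.03 between the clones and the 'control' line and -3.07 between clone 2 and clone 1. *Tgfb2* was higher in the clones by 1.26 and lower in clone 2 than in clone 1 by 1.01 on the log2 scale. *Ehf* with -1.37 and *Ap1m2*, an adaptor for sorting to the basolateral membrane, with -1.72 were lower in the clones than in the 'control' line. Between passages, 5 of 29 junction genes were called lower at passage 25 and 0 higher, where 1.29% of all tested genes were lower and 0.398% higher. They were led by the keratins *Krt19* with -1.96 and *Krt7* with -1.91. *Krt19* went from 10649 to 2589.5 in the 'control' line, from 20727 to 5590.1 in clone 1, from 14361 to 3395 in clone 2 and from 15247 to 4324 in pre-iPS cells. The sum of 5 markers of surface epithelium, *Krt7* among them, was 1445 to 7558 over the iPS libraries, and 3 of these 5 were called lower at passage 25. *Grhl3*, also one of the 5, was called lower with -1.21, and the mesenchymal *Acta2* and *Tagln* with -1.40 and -1.33. *Cdh1* and *Epcam* were not called there.

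Upstream sequences, the 250 bases before an annotated start of a gene, were read from RefSeq on GRCm38.p6. They were held for 6 of the 10 genes, *Epcam*, *Snai1*, *Twist1*, *Twist2*, *Vim* and *Zeb2*. They were searched for the E-box CACCTG and its reverse complement CAGGTG, the form bound by Snail and Zeb factors. The 3 sequences below show the gene with 2 copies, the gene with 1 and, for contrast, a factor with 0, with the motif in capitals, on the plus strand at chr17:87635729-87635978 for *Epcam*, chr2:167537945-167538194 for *Snai1* and chr12:33957421-33957670 for *Twist1*.
Epcam: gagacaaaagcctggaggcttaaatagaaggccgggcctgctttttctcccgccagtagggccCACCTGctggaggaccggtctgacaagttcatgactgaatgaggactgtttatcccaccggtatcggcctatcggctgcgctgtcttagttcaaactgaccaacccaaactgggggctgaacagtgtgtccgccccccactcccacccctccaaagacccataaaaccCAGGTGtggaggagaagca
Snai1: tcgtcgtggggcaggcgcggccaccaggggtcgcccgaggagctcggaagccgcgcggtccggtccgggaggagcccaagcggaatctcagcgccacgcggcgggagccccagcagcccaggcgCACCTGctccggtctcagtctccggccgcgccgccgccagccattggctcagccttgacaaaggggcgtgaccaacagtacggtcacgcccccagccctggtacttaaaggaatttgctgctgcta
Twist1: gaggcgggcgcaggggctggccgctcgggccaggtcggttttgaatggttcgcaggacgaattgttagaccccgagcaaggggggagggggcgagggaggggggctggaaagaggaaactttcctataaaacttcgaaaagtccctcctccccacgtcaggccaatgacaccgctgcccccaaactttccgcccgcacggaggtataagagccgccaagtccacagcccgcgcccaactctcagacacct

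The copies of *Epcam* began 187 and 19 bases before its start and that of *Snai1* 126 bases before. Of the 2 genes with the motif, *Epcam* was lower in MEF than in iPS and *Snai1* was higher. *Twist2*, *Vim* and *Zeb2* held 0 copies. The window of *Vim* (chr2:13574061-13574310) and some of those of *Zeb2* lie inside the gene positions given above, before a start further into the gene. The motif was found in 17.2% of all 32851 upstream windows, and at least 2 times in 2.06%. By gene it was found in 19.7% of 13472 genes of the table that have such a window. Of 19 junction, keratin and surface genes with a window, 13 held it (68.4%). The copies among these 13 ran from 1, as in *Cldn4* and *Cldn6*, to 4, in *Ap1m2* and *Lsr*. The genes of the 19 outside these 13, *Cldn3* and *Dsp* among them, held 0. Of 12 mesenchymal genes 0 held it, and of 12 further factors and co-repressors 0. It was found in 2 of 4 epithelial regulators (50%), in 1 of 4 catenins (25%) and in 1 of 9 TGF-beta and BMP signal genes (11.1%). Each is a count of letters in a window and not of bound sites.

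Genes whose levels ran most like those of each switch gene were named by Pearson's correlation of log2 values over the 10 libraries among 15206 genes with a highest value of at least 50. Since the 2 MEF libraries lie apart, these values mainly describe the step between MEF and the rest. *Cdh1* and *Epcam* were each other's closest gene with r = 0.9994, and *Gyltl1b* was next for both, with 0.9988 and 0.9989. *Twist1* was most like the ligand gene *Tgfb3* with 0.9989, followed by *Scarf2* with 0.9987 and *Rhoj* with 0.9977. *Snai1* was most like *Fam132a* with 0.9948, *Snai2* most like *Disp1* with 0.9982, *Zeb1* most like *Esyt1* with 0.9973, and *Zeb2* most like *Efemp1* with 0.9961. *Twist2* was most like *Apbb1ip* with 0.9943, *Cdh2* most like *Mef2c* with 0.9897, and *Vim* most like *Zfp651* with 0.9951.

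Without MEF, over the 8 pre-iPS and iPS libraries, which share lines in pairs, *Cdh1* and *Epcam* still ran together with r = 0.96. *Zeb2* and *Twist2* had r = 0.78 and *Twist1* and *Vim* r = 0.8. *Epcam* and *Twist2* had r = -0.81, *Cdh1* and *Twist2* r = -0.67 and *Epcam* and *Vim* r = -0.67. *Snai1* had r = 0.12 with *Cdh1* and 0.05 with *Epcam*, and r = -0.58 with *Snai2*. These are descriptions of 8 libraries of 4 lines.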

How the data were processed

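The 10 libraries were polyadenylated RNA read as single reads. The submitters' processing notes name FastQC, CASAVA 1.8.2, TopHat2 2.0.8b, HTSeq 0.5.3p9, edgeR and mm10, and the annotation and the strand setting of the counting are not given in the sources used here. The authors deposited a normalized signal, read counts equalized by edgeR to a common library size. Whole reads were recovered from it for 100% of values, within 0.1 of a read, and used for depth, for edgeR 4.0.16 and for DESeq2 1.42.0. Genes with fewer than 10 reads over all libraries are not in the table.

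Tests were run in R 4.3.3 with limma 3.58.1 (eBayes, trend) after log2(value + 1), fitting the 5 lines as separate means. Fold changes are on the log2(value + 1) scale, which understates those of low genes. It was tested on simulated data. Passage numbers paired the libraries: the deviations of same-numbered libraries correlated at 0.235 to 0.504 over the pairs of lines, and the block did not change a call among the 10 genes.

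The members and lists were chosen with earlier results of these data known. Named were all 10 genes, up to 4 called genes of each list with the largest change in comparisons with MEF or pre-iPS and up to 2 in the others, and the genes most like each by correlation. A result of this order is not reported here. *Klf5*, *Cd44* in MEF against iPS, *Cdh3* in MEF against iPS and *Ovol2* outside that order were named for their place among the list's calls after their values were seen. *Cdh1*, *Cdh2*, *Snai2* and *Zeb1* had no upstream window in the table used. Positions are from GENCODE M21 on GRCm38. Alternatives were other pseudocounts, filters and scalings, a fit over the lines compared, the block, each library left out, edgeR and DESeq2.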

Additional observations from a re-analysis of the deposited data

Results flagged for a closer look

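*Cdh2* was singled out because its passages moved in opposite directions in different lines, each by at least 0.5 on the log2 scale. Passage 25 less passage 5 was 0.745 in the 'control' iPS line (804 and 1347) and -0.86 in clone 2 (1562 and 860.3). Each value rests on 1 library per passage, and the difference between the lines was not tested.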

How the results depend on the processing

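All 10 genes were called, in the same direction, in MEF against iPS and against pre-iPS under all 19 alternatives. Scaling to housekeeping genes moved the median of all genes from -0.09 to 0.30 (MEF against iPS) and from -0.06 to 0.36 (MEF against pre-iPS) on the log2 scale and left these calls in place. Quantile normalization moved *Vim* to 2.05 and 1.82 and *Epcam* to -7.54 and -7.41 in these comparisons. In the other 4 comparisons 0 genes were called in every alternative but 1, quantile normalization, which called 1 in pre-iPS against iPS (*Snai2*, 1.04). With passage as a replicate block 0 of the 10 were called and no other call among them changed. Over all genes, fitting the lines compared alone gave 134 calls in place of 360 (clones against 'control') and 6 in place of 165 (clone 2 against clone 1), and DESeq2 gave 435 in the latter. Between passages, leaving out the block for the line gave 6 calls in place of 289. The filter on a mean of at least 50, which tests 14043 genes, gave 1758 in place of 2781 in pre-iPS against iPS and 106 in clone 2 against clone 1. A block for MEF could not be fitted, since its passages are other numbers. The cause of these shifts was not tested.

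Values near 0 changed sign when 1 library was left out, none of them called. In pre-iPS against iPS the range was -0.016 to 0.37 for *Vim*, -0.223 to 0.039 for *Twist1*, -0.028 to 0.382 for *Zeb1* and -0.353 to 0.011 for *Twist2*. In the clones against the 'control' line it was -0.036 to 0.405 for *Twist1*, -0.30 to 0.13 for *Cdh1*, -0.088 to 0.657 for *Cdh2*, -0.25 to 0.12 for *Epcam*, -0.27 to 0.10 for *Snai2*, -0.64 to 0.46 for *Twist2* and -0.78 to 0.18 for *Zeb2*. In clone 2 against clone 1 it was -0.057 to 0.214 for *Zeb1*, -0.38 to 0.37 for *Snai2* and -0.69 to 0.17 for *Cdh2*. Between passages it was -0.232 to 0.027 for *Twist1*, -0.309 to 0.037 for *Vim* and -0.11 to 0.42 for *Cdh2*, and quantile normalization gave 0.003 for *Twist1* and 0.008 for *Vim*. Where 1 library of a line was left out, the lone library was assumed to vary like the other lines.

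Per kb of the longest transcript in place of the exon union, the order of the genes was the same in MEF, and *Snai2*, *Twist2*, *Zeb1* and *Zeb2* changed places by 1 rank at most in pre-iPS or iPS. Depth leaves the fold of a gene with no read in MEF, such as *Ovol2*, as a lower bound.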
